A study of Mus musculus with 4 samples.

Results

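The iron and heme handling genes described here are 10 genes for the transport, storage and control of iron and the transport and breakdown of heme. They are Slc11a2, Cybrd1, Slc40a1, Heph, Tfrc, Fth1, Hmox1, Flvcr1, Flvcr2 and Epas1. They were taken by gene symbol from the platform annotation of a mouse short-oligonucleotide array, where 23 of the 45101 probe sets carry one of these symbols, 3 of them array controls for Tfrc. All 10 genes are among the 18193 genes that have a probe set with a single symbol. The genes were chosen by name and not by a measured value, although earlier results of these data were known.

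The arrays were hybridised with RNA of laser-captured epithelium from sections of ileum and proximal colon. The 4 groups were ileum of germ-free C57BL/6 mice, ileum of wild type control C57BL/6 mice, colon of germ-free mice and colon of wild type control mice. Germ-free mice are raised without microbes; the age, sex and housing of the animals are not given in the labels. Each group was 1 array, made from about 16000 cells pooled over 4 mice (about 4000 from each), so each group is a pool and no difference below has a replicate check or a test. The labels mention hematoxylin staining for the germ-free captures alone.

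Values are intensities per probe set, quantile-normalized between arrays, and a log2 difference of 1 is a 2-fold difference. An intensity below 62.4, the pooled median of all arrays, is called below the floor; a gene with at least 1 of the compared arrays above the floor counts as measured, and where 1 of them is below the floor the fold is given as "at least". Each gene is represented by its brightest probe set, and its other probe sets are given beside it. The disagreement between probe sets was gauged by the SD between the 2 brightest probe sets of a gene, over 1800 genes with 2 bright probe sets. This SD was 0.20 log2 for germ-free minus wild type in ileum and 0.26 in colon. Both probe sets were read on the same arrays, so it does not cover errors of capture, amplification or hybridization. Nor does it cover the spread between mice, and it was not measured for dim genes such as Cybrd1.

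The captures carried epithelial RNA on every array. All 9 epithelial markers (among them Epcam, Cdh1 and Vil1) were above the floor on all 4 arrays, with a summed intensity of 73851 in germ-free ileum, 76501 in wild type ileum, 69782 in germ-free colon and 64246 in wild type colon. Markers of other cells of the gut wall differed between states. Of 11 measured smooth muscle and fibroblast markers 5 were at least 2-fold lower in germ-free ileum and 0 higher (median log2 difference -0.82), among them Rgs5 at 194 in germ-free ileum against 2632 in wild type ileum; in colon 1 of 8 was at least 2-fold higher and 0 lower (median -0.46). The summed intensity of the 13 markers was 4991 in germ-free ileum, 9746 in wild type ileum, 4566 in germ-free colon and 5053 in wild type colon, and the smooth muscle genes Myh11 and Cnn1 were below the floor on all arrays. Of the measured plasma and B cell markers 2 of 4 were at least 2-fold lower in germ-free ileum (median -1.35) and 2 of 3 in germ-free colon (median -2.98), and 0 were higher in either. Their sum over 6 markers was 2685 in germ-free ileum, 12393 in wild type ileum, 918 in germ-free colon and 6419 in wild type colon, and the B cell genes Cd79a and Ms4a1 were below the floor on all arrays. The arrays also differed in measures of RNA quality, in values as deposited. The 5′ over 3′ signal of the Gapdh control, as a germ-free minus wild type log2 difference, was -1.10 in ileum and -0.48 in colon, and that of Actb -1.20 and -0.12. The 3 probe sets for 18S ribosomal RNA had a median difference of -0.93 in ileum and -1.23 in colon, and 18 probe sets for added hybridization spikes -0.30 and 0.17. The part of these differences in the results below was not tested.

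As background, dietary ferric iron is reduced at the apical membrane of the enterocyte by CYBRD1 (Dcytb) and taken up as ferrous iron by SLC11A2 (DMT1). Iron that is not stored in ferritin leaves through the basolateral exporter SLC40A1 (ferroportin), with the ferroxidase HEPH, and iron bound to plasma transferrin enters cells through the receptor TFRC. When cellular iron is low, iron regulatory proteins stabilise the Tfrc mRNA and block translation of ferritin and ferroportin mRNA, and the hypoxia factor HIF-2α, encoded by Epas1, is known to raise transcription of Slc11a2, Cybrd1 and Slc40a1 in the mouse intestine. HMOX1 breaks down heme, and FLVCR1 and FLVCR2 were first described as heme transporters.

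By the brightest probe set, 3 of the 10 genes differed by at least 2-fold with the germ-free state in 1 gut region each. Flvcr2 was higher and Slc40a1 lower on the germ-free ileum array, and Tfrc was higher on the germ-free colon array. Flvcr2 was below the floor on both colon arrays, so its colonic difference has no measured value. The dimmer Slc40a1 probe set was past 2-fold in colon too, at 2.48-fold lower in germ-free colon. With the mean over its probe sets the colonic Tfrc difference was 0.90 log2, below 2-fold. In ileum 1 of 9 measured members was at least 2-fold higher, against 0.230% of all measured genes, and 1 was at least 2-fold lower, against 0.698%. In colon 1 of 8 measured members was at least 2-fold higher, against 1.29% of all measured genes, and 0 were at least 2-fold lower, against 3.23%. The members' median log2 difference was -0.05 in ileum and 0.13 in colon, and the median of all measured genes 0.03 and -0.01. The difference was larger than the SD between probe sets for 8 of 9 members in ileum, against 43.4% of all measured genes, and for 3 of 8 in colon, against 50.3%. Of the 8 members measured in both regions, 6 had a germ-free difference of the same sign in ileum and colon, where 52.3% of all 11065 genes measured in both did.

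**Figure D1:**
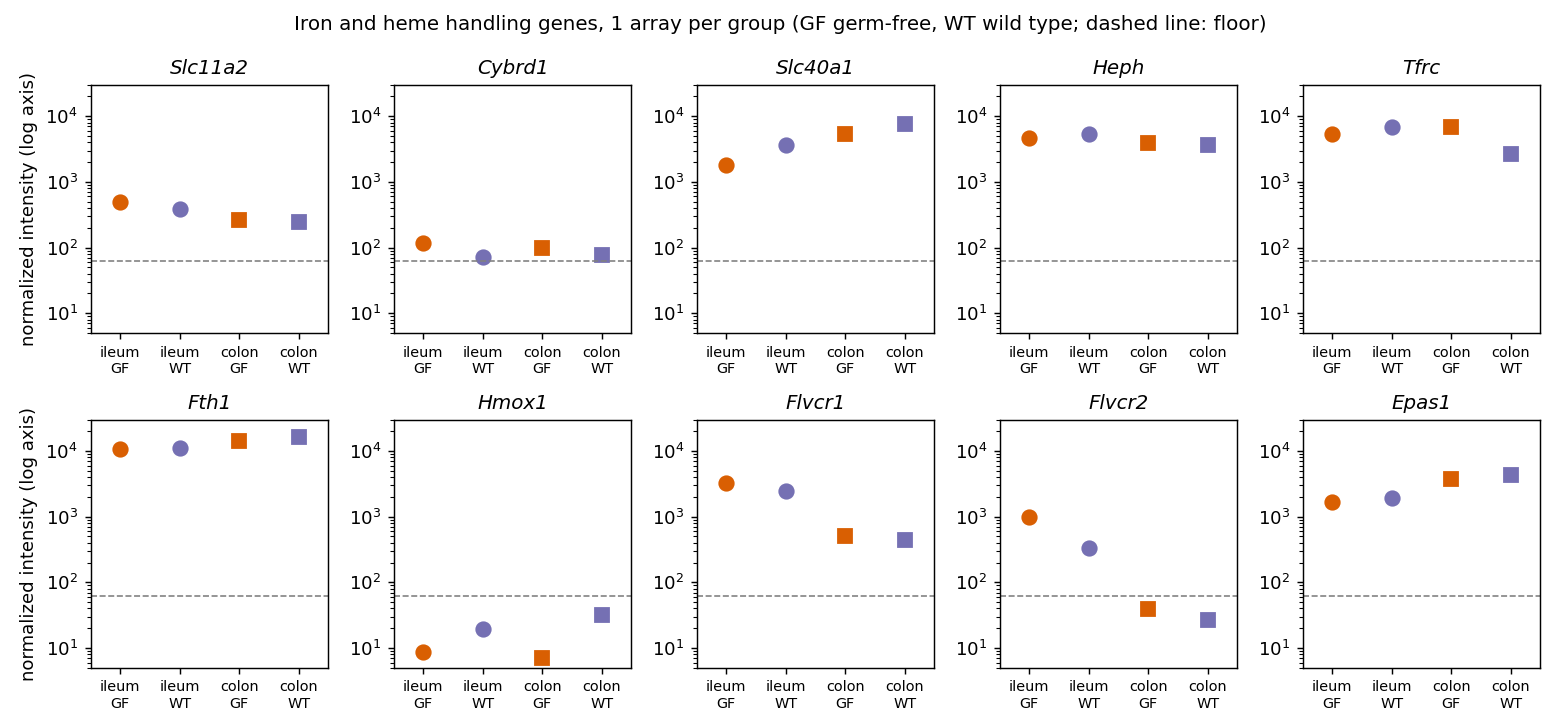
Normalized intensity (log axis) of the brightest probe set of each of the 10 genes on the 4 arrays, 1 point per array; GF is germ-free, WT wild type, circles are ileum and squares colon, and the dashed line is the floor at 62.4. Flvcr2 stands above the floor in ileum alone, Hmox1 stays below it on every array, and Tfrc reads 2621 in wild type colon and at least 5446 elsewhere.

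Slc11a2, the apical ferrous iron importer, read 496 in germ-free ileum against 383 in wild type ileum, and 263 in germ-free colon against 244 in wild type colon. Its germ-free array was the higher one in each region, by 1.30-fold in ileum and 1.08-fold in colon. The other 3 probe sets did not share one direction: in ileum their log2 differences were -0.03, 0.12 and -0.14, and in colon -0.09, 0.51 and 0.42. With the mean over the 4 probe sets the ileal log2 difference was 0.08 in place of 0.37, so a germ-free difference in Slc11a2 depended on the probe set read.

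Cybrd1, the apical ferric reductase, was dim on all arrays. It read 117 in germ-free ileum against 72.1 in wild type ileum, and 99.99 in germ-free colon against 76.1 in wild type colon. The germ-free array was higher by 1.62-fold in ileum and 1.31-fold in colon, and no array was far above the floor. Of the 11750 genes measured in ileum, 142 (1.21%) were at least as much higher, Cybrd1 included. Its other probe set was below the floor on all arrays.

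Slc40a1, the only known iron exporter of mammalian cells, read 1799 in germ-free ileum against 3607 in wild type ileum, and 5401 in germ-free colon against 7606 in wild type colon. Both germ-free arrays were lower than their wild type counterparts, by 2.004-fold in ileum and 1.41-fold in colon. The dimmer probe set, at 195 and 421 in germ-free and wild type ileum and at 546 and 1353 in germ-free and wild type colon, was 2.16-fold lower in germ-free ileum and 2.48-fold lower in germ-free colon. The probe sets therefore had the same sign in each region but differed in size in colon, where the mean over them gave a log2 difference of -0.90 in place of -0.49. In ileum the value lies at the 2-fold line and ranged from -1.003 to -1.09 under the alternatives. Of the genes measured in ileum, 82 (0.698%) were at least as much lower.

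Macrophages also hold much ferroportin, and macrophage and myeloid markers differed between the arrays. Of 11 macrophage and myeloid markers measured in ileum 9 were lower on the germ-free array, with a median log2 difference of -0.37. By at least 2-fold 1 was lower, against 0.698% of all measured genes. In colon 9 of 10 were lower (median -0.30), 1 of them by at least 2-fold, against 3.23% of all measured genes. The summed intensity of the 14 markers on the array was 3678 in germ-free ileum and 4656 in wild type ileum, and 2670 in germ-free colon and 2928 in wild type colon. In ileum most of the gap between the sums was 1 gene, Lyz2, which encodes a lysozyme and whose close paralogue Lyz1 is a Paneth cell gene. It was the marker past 2-fold there, at 888 in germ-free ileum against 1791 in wild type ileum, and it read 68.0 in germ-free colon against 101 in wild type colon. Without Lyz2, a comparison chosen after its values were seen, the sum was 2790 in germ-free ileum against 2864 in wild type ileum, and 8 of 10 measured markers were lower with 0 past 2-fold (median -0.33). The macrophage genes Cd68, C1qa and Cd163 were below the floor on all 4 arrays, while Csf1r read 1325 in germ-free ileum against 1038 in wild type ileum and Adgre1 read 325 in germ-free ileum against 244 in wild type ileum and 221 in germ-free colon against 472 in wild type colon. The smooth muscle and fibroblast and the plasma cell markers given above also stood lower in germ-free ileum. The part of any of these cells in the Slc40a1 values was not tested, and in such pools fewer cells of a type and less RNA per cell cannot be told apart.

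Heph, the membrane ferroxidase that works with ferroportin, had 1 probe set. It read 4695 in germ-free ileum against 5418 in wild type ileum, and 3969 in germ-free colon against 3590 in wild type colon. The germ-free array was the lower one in ileum, by a log2 difference of -0.21, and the higher one in colon, by 0.14. The ileal value was just past the SD between probe sets and the colonic one within it, and the colonic sign turned to -0.14 with median scaling between arrays.

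Tfrc, the receptor for transferrin-bound iron, read 5446 in germ-free ileum against 6812 in wild type ileum, and 6904 in germ-free colon against 2621 in wild type colon. Wild type colon was the single low array, and the other arrays lay between 5446 and 6904. On the germ-free array Tfrc was 2.63-fold higher in colon and 1.25-fold lower in ileum, a difference between regions of -1.72 log2 (ileum minus colon). At least as large an increase in colon was seen for 46 of 11746 measured genes (0.392%), Tfrc included. Across all 11065 genes measured in both regions, 7.14% had germ-free differences at least 1 log2 apart.

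The 6 probe sets named for Tfrc fell into sets with different patterns. The brightest probe set, the dimmest of the 3 that are not array controls, and the control for the middle of the transcript all read lowest in wild type colon: the dim one was at 72.4 in germ-free colon against 23.2 in wild type colon, and the middle control at 79.4 against 23.2. The remaining probe set, of middle brightness, and the 3′ control went the other way. The probe set of middle brightness read 137 in germ-free colon against 173 in wild type colon, and the 3′ control 151 against 188. In ileum it read 268 in germ-free against 252 in wild type, and the 3′ control 223 against 201. The 5′ control was below the floor on all arrays. With the mean over the 3 probe sets that are not controls, the colonic difference was 0.90 log2, below 2-fold. That mean takes the dim probe set at its wild type colon value of 23.2, below the floor. With the floor applied, the dim probe set was at least 1.16-fold higher in germ-free colon.

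**Figure D2:**
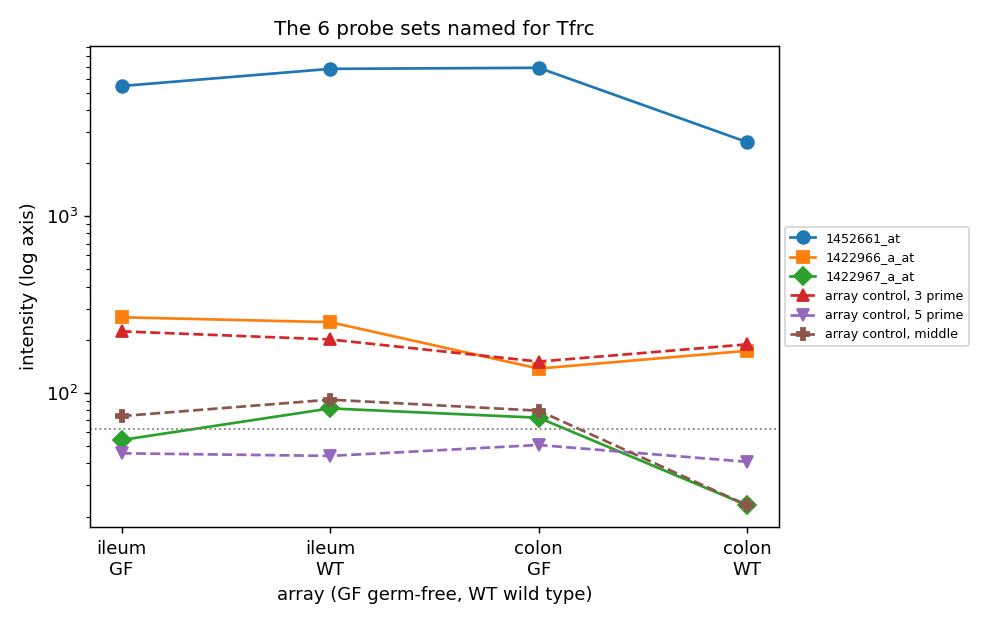
Intensity (log axis) of the 6 probe sets named for Tfrc on the 4 arrays (GF germ-free, WT wild type), 1 line per probe set; dashed lines are array controls, as deposited, and the dotted line is the floor at 62.4. The brightest probe set has its lowest value in wild type colon, at 2621. The dimmest probe set that is not a control and the middle control are also lowest there, but at 23.2, below the floor. The 5′ control is below the floor on all arrays. The probe set of middle brightness (orange squares) and the 3′ control have their lowest values in germ-free colon, at 137 and 151.

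Markers of proliferating cells, which take up iron through TFRC, also stood higher in germ-free than in wild type colon. Of 8 measured markers 7 were higher, with a median log2 difference of 0.64. At least 2-fold higher was 1, Mcm6 (185 in germ-free colon against 87.1 in wild type colon), against 1.29% of all measured genes. Their summed intensity was 3169 in germ-free colon against 2509 in wild type colon, and 3635 in germ-free ileum against 3709 in wild type ileum, where the median difference was 0.01. The part of proliferating cells in the Tfrc values was not tested.

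Fth1, the heavy chain of the iron store ferritin, was bright on all arrays. It read 10628 in germ-free ileum against 10991 in wild type ileum, and 13975 in germ-free colon against 16273 in wild type colon. The germ-free differences of -0.05 log2 in ileum and -0.22 in colon were both within the SD between probe sets. Both Fth1 probe sets are of a kind that can match several transcripts. The dimmer one read 3985 in germ-free ileum against 5904 in wild type ileum, a difference of -0.57. In colon it read 6643 in germ-free against 12019 in wild type, a difference of -0.86. Both Fth1 probe sets thus had the lower value on the germ-free array in each region, by sizes that differed between them. Processed ferritin pseudogenes resemble Fth1 closely, so which of these values is Fth1 alone is uncertain.

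Flvcr1 and Flvcr2 are paralogues of the major facilitator superfamily. FLVCR1 was described as a heme exporter and FLVCR2 as a heme importer, and both have since been described as choline transporters. Their promoters are shown because Flvcr2 had the largest germ-free difference of the 10 genes while Flvcr1 had a small one, and those of Tfrc and Cybrd1 because they are the other members with a germ-free increase past 1.5-fold. The 250 bases before the annotated start are printed 5′ to 3′ from RefSeq (GRCm38.p6), where 5 of the 10 genes had a promoter entry. Those printed are Flvcr2 at chr12:85746289-85746538 (+), Flvcr1 at chr1:191026191-191026440 (-), Tfrc at chr16:32608646-32608895 (+) and Cybrd1 at chr2:71117804-71118053 (+). Capitals mark ACGTG and GCGTG on either strand (CACGT and CACGC in the printed strand), the core letters that hypoxia factors such as the Epas1 product are known to bind.
Flvcr2: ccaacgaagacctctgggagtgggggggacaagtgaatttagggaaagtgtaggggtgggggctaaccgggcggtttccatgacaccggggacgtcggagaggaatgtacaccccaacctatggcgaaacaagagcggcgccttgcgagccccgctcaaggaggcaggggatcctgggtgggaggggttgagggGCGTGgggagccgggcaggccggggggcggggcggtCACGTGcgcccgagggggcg
Flvcr1: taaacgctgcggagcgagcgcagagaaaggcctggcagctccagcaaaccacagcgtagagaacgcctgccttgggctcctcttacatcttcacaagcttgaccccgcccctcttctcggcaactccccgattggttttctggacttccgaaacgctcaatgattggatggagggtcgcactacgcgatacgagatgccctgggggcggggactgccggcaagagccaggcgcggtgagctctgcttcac
Tfrc: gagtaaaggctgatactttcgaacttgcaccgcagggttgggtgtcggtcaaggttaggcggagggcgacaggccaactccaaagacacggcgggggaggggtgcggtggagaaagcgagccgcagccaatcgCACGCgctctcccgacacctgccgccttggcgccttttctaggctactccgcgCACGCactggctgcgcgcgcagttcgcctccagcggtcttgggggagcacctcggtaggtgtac
Cybrd1: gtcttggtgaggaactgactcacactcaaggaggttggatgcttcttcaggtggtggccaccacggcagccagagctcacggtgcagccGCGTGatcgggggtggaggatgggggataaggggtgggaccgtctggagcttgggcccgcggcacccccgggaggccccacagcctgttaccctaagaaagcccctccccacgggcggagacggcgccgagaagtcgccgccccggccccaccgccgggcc
The Flvcr2 window held GCGTG at position -56 and, at position -20, the palindrome CACGTG, which contains ACGTG on each strand and is also the letters of an E-box. The Flvcr1 window held neither core. The Tfrc window held 2 GCGTG matches, at positions -117 and -64, and the Cybrd1 window held 1, at position -161. RefSeq lists a second start for Tfrc, whose window at chr16:32608872-32609121 (+), not printed, held ACGTG at position -228 and GCGTG at positions -134 and -42. Fth1, the remaining member with a promoter entry, had germ-free log2 differences of -0.05 in ileum and -0.22 in colon and is not printed. Its window at chr19:9982396-9982645 (+) held GCGTG at position -50, and that at chr19:9980350-9980599 (+) held neither core. Of 32851 mouse promoter windows of the same length 16.6% held ACGTG, 28.2% GCGTG, 38.6% at least 1 of them and 6.02% CACGTG. These matches are letters in a window and were not read as binding sites.

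Flvcr2 read 982 in germ-free ileum against 337 in wild type ileum, and 39.2 in germ-free colon against 26.9 in wild type colon. Both ileum arrays were well above the floor and both colon arrays below it, so the colonic difference has no measured value. In ileum the germ-free array was 2.91-fold higher (log2 1.54), and 5 of 11750 measured genes were at least as much higher, Flvcr2 included. The log2 difference was 1.55 with values as deposited and 1.59 with median scaling. The floor and probe set alternatives could not move it, because the gene rests on 1 probe set and both ileum values lie above every floor used.

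Flvcr1 read 3203 in germ-free ileum against 2489 in wild type ileum, and 513 in germ-free colon against 449 in wild type colon. The germ-free array was the higher one in each region, by 1.29-fold in ileum and 1.14-fold in colon. The other probe set read 72.7 in germ-free ileum against 78.9 in wild type ileum. It was below the floor in colon, at 23.0 in germ-free and 33.5 in wild type. With the mean of both probe sets the ileal difference was 0.12 log2 in place of 0.36, and the colonic one -0.17 in place of 0.19. That colonic sign rests on values below the floor, so it is not a measured reversal. Whether Flvcr1 and Flvcr2 differ in their ileal response was not tested, with 1 array per group.

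The genes whose profile over the 4 arrays lay closest to that of Flvcr2 were Slc5a12, Maob and Slc25a4. The root mean square distance of the mean-centred log2 values was 0.24, 0.29 and 0.37 among 7611 genes compared. Slc5a12, a sodium-coupled lactate transporter, read 726 in germ-free ileum and 391 in wild type ileum and was below the floor in colon. The colon values of Flvcr2 and Slc5a12 were set to the floor before the distance was taken, so their likeness rests on the ileum arrays and on both being dim in colon. With 4 arrays such likeness is a description of these arrays.

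Hmox1, the inducible enzyme that opens the heme ring and frees its iron, was below the floor on every array by its 1 probe set, at 8.70 in germ-free ileum, 19.4 in wild type ileum, 7.02 in germ-free colon and 31.7 in wild type colon. No difference in Hmox1 was measurable at these intensities.

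Epas1, which encodes the HIF-2α subunit, read 1676 in germ-free ileum against 1955 in wild type ileum, and 3739 in germ-free colon against 4255 in wild type colon. The germ-free array was slightly lower in each region, by log2 differences of -0.22 in ileum and -0.19 in colon. The dimmer probe set read between 83.5 and 118 and differed by 0.10 in ileum and -0.23 in colon. Endothelial cells express Epas1 strongly, and 7 of 7 measured endothelial markers stood lower in germ-free than in wild type colon (median -0.73). Of these 2 were at least 2-fold lower, against 3.23% of all measured genes. In ileum 5 of 7 were lower on the germ-free array (median -0.14). The summed intensity of the 12 endothelial markers was 881 in germ-free ileum and 932 in wild type ileum, and 646 in germ-free colon and 1251 in wild type colon. The defining endothelial genes Pecam1, Tie1, Esam and Vwf were below the floor on all 4 arrays, and Cdh5 on all but the germ-free ileum array. The part of endothelial cells in the Epas1 values was not tested.

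**Figure D3:**
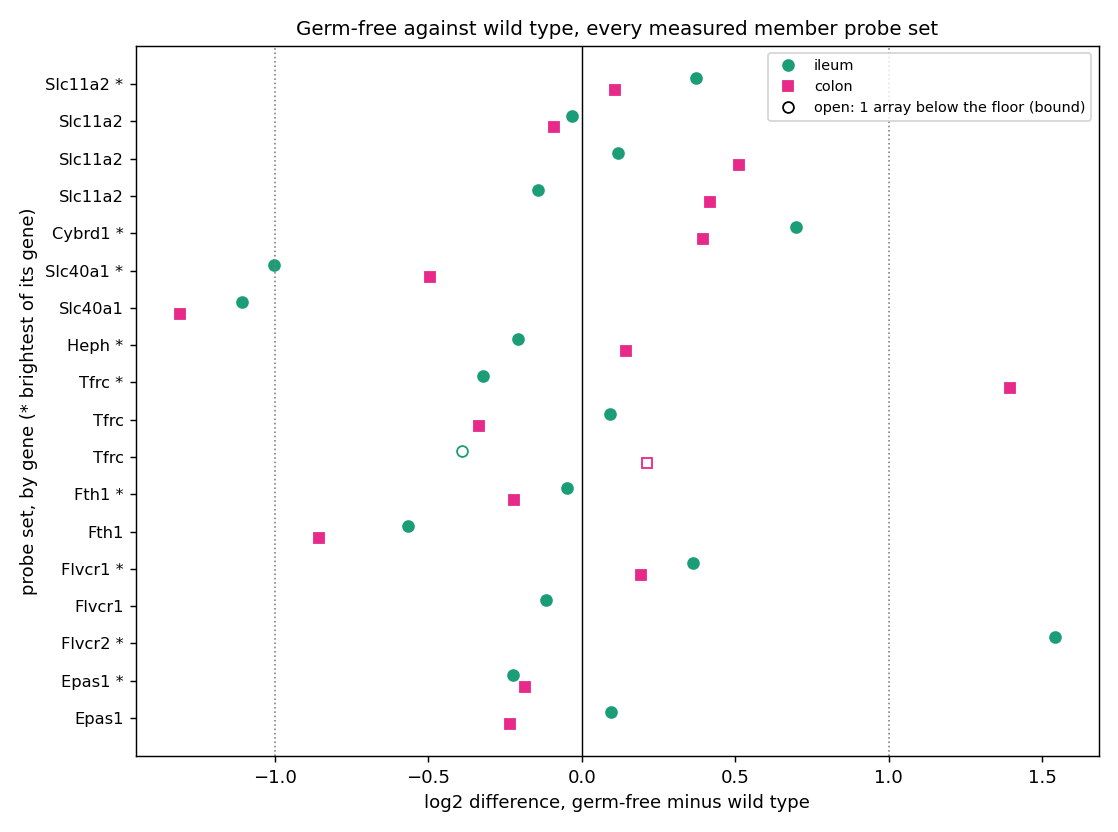
Log2 difference of germ-free minus wild type for every member probe set with at least 1 array above the floor (array controls left out), in ileum (circles) and colon (squares); open symbols are bounds, dotted lines mark 2-fold and an asterisk the brightest probe set of a gene. Both Slc40a1 and both Fth1 probe sets lie left of 0 in each region, the Slc11a2 and Tfrc probe sets lie on both sides, and Flvcr2 in ileum lies at 1.54.

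More members were past 2-fold between gut regions than between states, as were more of all genes. In germ-free mice 2 of 9 measured members stood at least 2-fold above colon in ileum, against 7.37% of all measured genes, and 2 at least 2-fold lower, against 5.88%. In wild type mice 3 of 9 were at least 2-fold higher in ileum, against 6.04%, and 2 at least 2-fold lower, against 5.93%. The members' median log2 difference, ileum minus colon, was 0.23 in germ-free mice and 0.59 in wild type mice, and that of all measured genes 0.04 and -0.01. These comparisons reuse the 4 arrays of the germ-free comparisons.

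The heme transporter genes stood higher in ileum. Flvcr1 was 6.24-fold higher in germ-free ileum and 5.55-fold higher in wild type ileum than in the colon of the same mice, by its brightest probe set, and Flvcr2 was at least 15.7-fold and at least 5.40-fold higher. The other Flvcr1 probe set, close to the floor in ileum and below it in colon, was at least 1.17-fold and at least 1.26-fold higher, and the mean over both gave log2 differences of 2.15 in germ-free and 1.85 in wild type mice in place of 2.64 and 2.47. Slc11a2 was 1.89-fold higher in ileum in germ-free mice and 1.57-fold in wild type mice by its brightest probe set, and all 4 of its probe sets were higher in ileum in either state, the other 3 by 2.07- to 2.60-fold in germ-free mice and by 2.49- to 3.37-fold in wild type mice. Heph was 1.18-fold higher in germ-free ileum and 1.51-fold higher in wild type ileum.

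Slc40a1, Epas1 and Fth1 stood lower in ileum than in colon. Slc40a1 was 3.001-fold lower in germ-free ileum and 2.11-fold lower in wild type ileum, and its dimmer probe set 2.80-fold and 3.21-fold lower. Epas1 was 2.23-fold and 2.18-fold lower, and its dimmer probe set 1.13-fold and 1.42-fold lower. Fth1 was 1.31-fold and 1.48-fold lower, and its other probe set 1.67-fold and 2.04-fold lower. For all 3 genes every probe set was lower in ileum in both states.

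The brightest Tfrc probe set was 1.27-fold lower in germ-free ileum than in germ-free colon, and 2.60-fold higher in wild type ileum than in wild type colon. In germ-free mice the direction depended on the probe set: the one of middle brightness was 1.95-fold higher and the 3′ control 1.48-fold higher in ileum, and of the 6 probe sets 2 were higher, 3 lower and 1 below the floor. The germ-free log2 difference of the gene was -0.34 by the brightest probe set, -0.01 with median scaling and 0.07 with the mean over the 3 probe sets that are not controls, so no direction is given for it. In wild type mice 5 of the 6 were higher in ileum and 1 was below the floor, the probe set of middle brightness by 1.45-fold and the 3′ control by 1.07-fold. Cybrd1 also had opposite signs in the 2 states, with small log2 differences of 0.23 in germ-free mice and -0.08 in wild type mice. Beside these values, 9 of 9 measured markers of small intestinal absorptive cells were higher in ileum in both states, with a median of 1.97 log2 in germ-free mice and 2.01 in wild type mice. Of 8 measured colonocyte markers 6 were lower in germ-free ileum (median -0.57) and 8 in wild type ileum (median -2.21).

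**Figure D4:**
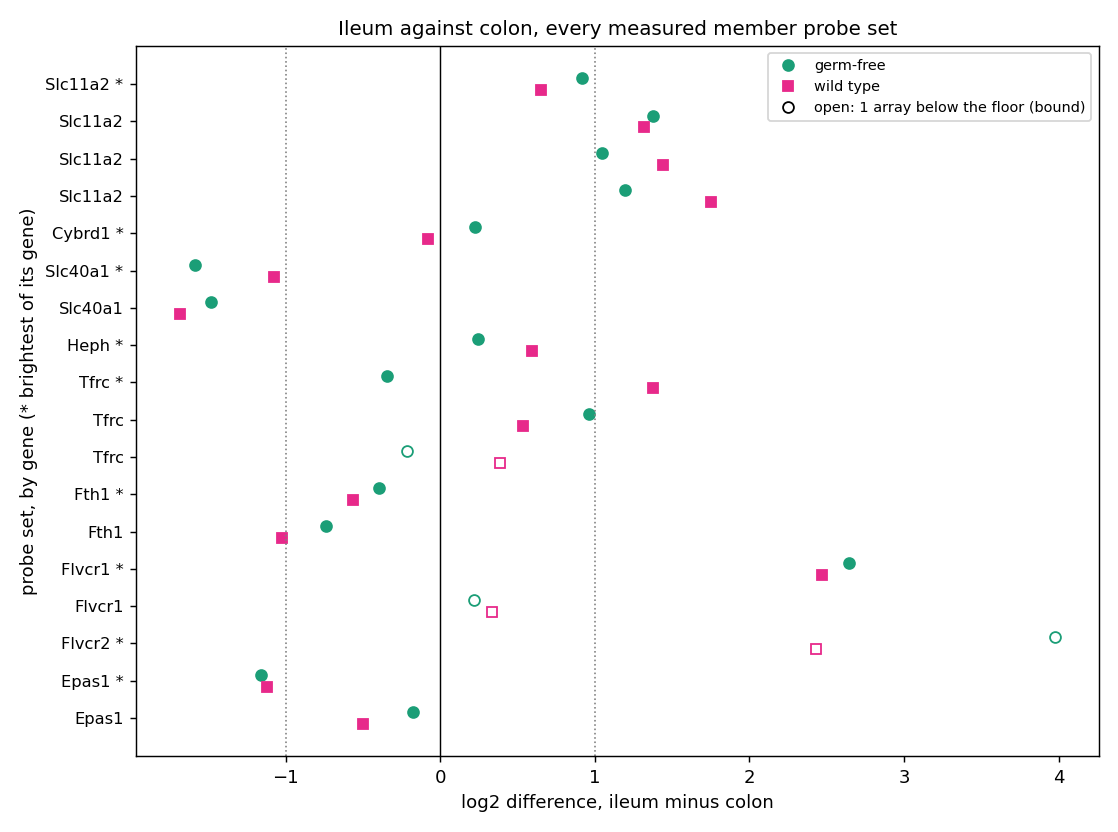
Log2 difference of ileum minus colon for every member probe set with at least 1 array above the floor (array controls left out), in germ-free (circles) and wild type mice (squares); open symbols are bounds, dotted lines mark 2-fold and an asterisk the brightest probe set of a gene. Slc11a2, Flvcr1 and Flvcr2 lie right of 0 and Slc40a1, Fth1 and Epas1 left of it in both states, while the brightest Tfrc probe set lies at -0.34 in germ-free and 1.38 in wild type mice.

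The other genes of iron and heme metabolism showed few germ-free differences past 2-fold, as did all measured genes. Of all measured genes 0.928% were past 2-fold in ileum and 4.52% in colon. Against such shares, counts of 0 or 1 in lists of this size say little about the lists. Of the other genes of cellular iron uptake, storage and sensing, 0 of 22 measured in ileum and 0 of 21 in colon were past 2-fold, with medians of -0.05 and -0.04. Among genes of systemic iron control and of iron binding in plasma or lumen, 0 of 9 were past 2-fold in ileum (median 0.06), and in colon 1 of 8 was at least 2-fold lower and 0 higher (median -0.20). That gene was Cp, encoding the plasma ferroxidase ceruloplasmin, which was below the floor in germ-free colon against 126 in wild type colon and so at least 2.01-fold lower; in ileum it read 102 in germ-free against 110 in wild type.

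Of 10 measured heme synthesis genes 1 was at least 2-fold higher in germ-free ileum, against 0.230% of all measured genes, and 0 were lower (median -0.07). In colon 0 of 10 were past 2-fold (median -0.30). The one in ileum was Cpox, coproporphyrinogen oxidase, at 240 in germ-free against 114 in wild type ileum (2.10-fold higher). Of the other genes of heme transport and breakdown 0 of 10 were past 2-fold in ileum (median -0.01). In colon 0 were higher (median -0.18) and 1 of 10 was at least 2-fold lower, against 3.23% of all measured genes. It was Blvrb, biliverdin reductase B, at 86.1 in germ-free colon against 247 in wild type colon (2.87-fold lower), and it read 57.3, below the floor, in germ-free ileum against 101 in wild type ileum.

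Hypoxia and redox genes were examined because Epas1 and Hmox1 belong to those responses. Partners and targets of hypoxia factors had 0 of 18 measured members past 2-fold in ileum (median 0.11) and 0 of 20 in colon (median -0.05). Of all measured genes 0.928% and 4.52% were. A redox defence list held Nrf2 targets together with Nfe2l2, the gene of Nrf2, and its regulator Keap1. Of its 12 measured genes 2 were at least 2-fold higher in germ-free ileum, against 0.230% of all measured genes, and 0 were lower (median 0.12). In colon 0 were past 2-fold (median 0.03). Those higher in ileum were the metallothioneins Mt2, at 3630 in germ-free against 956 in wild type ileum, and Mt1, at 6843 against 3296, which bind zinc and copper.

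**Figure D5:**
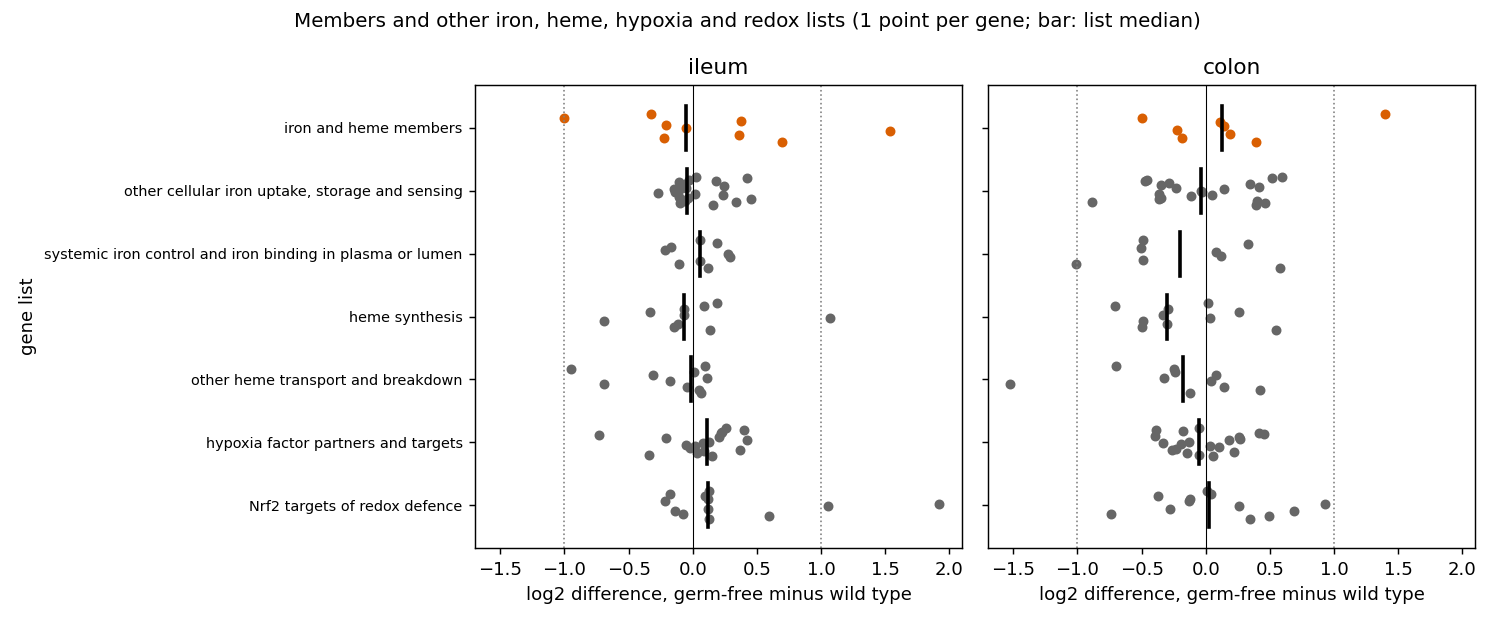
Log2 difference of germ-free minus wild type in ileum (left) and colon (right) for the measured genes of the 10 members (top, orange) and of 6 other lists (grey), 1 point per gene; bars are list medians and dotted lines mark 2-fold. The medians of all lists lie between -0.30 and 0.13, and the points past 2-fold in ileum are Flvcr2, Slc40a1, Cpox, Mt1 and Mt2.

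Some genes of these lists differed by at least 2-fold between regions in both states; the 7 named here, all that did so, were chosen after their values were seen. Slc39a8, a zinc, manganese and iron importer, was 7.94-fold lower in germ-free ileum and 8.99-fold lower in wild type ileum than in colon. Aco1, which encodes iron regulatory protein 1, was 2.37-fold and 2.78-fold higher in ileum. Nr1d2, a heme-binding nuclear receptor of the circadian clock, was 5.14-fold and 4.88-fold lower. Hif1a, the sister gene of Epas1, was 2.87-fold and 2.16-fold higher in ileum, opposite in sign to Epas1, and the prolyl hydroxylase gene Egln3 was 2.96-fold and 2.70-fold higher. Other hypoxia factor targets went the other way: Slc2a1, a glucose transporter gene, was 5.99-fold lower in germ-free ileum and 7.93-fold lower in wild type ileum, and Adm, which encodes adrenomedullin, 3.61-fold and 3.85-fold lower. Of the 20 measured partners and targets of hypoxia factors, 13 were lower in germ-free ileum than in colon (median -0.31). Past 2-fold, 6 of the 20 were lower there, against 5.88% of all measured genes, and 2 were higher, against 7.37%. In wild type ileum 15 were lower than in colon (median -0.41). Past 2-fold, 3 of the 20 were lower there, against 5.93% of all measured genes, and 2 were higher, against 6.04%.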

How the data were processed

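Epithelial cells of 4 groups were captured by laser and pooled, and RNA (40 ng) underwent 2 amplification rounds for 1 array per group, per the labels' protocols. The deposited table holds linear intensities per probe set, made by the authors in dCHIP2004 according to the design text; its settings are not stated there. Here, log2 intensities of 45037 probe sets (64 array controls left out) were quantile-normalized, since the medians of the brighter probe sets differed between arrays by 0.32 log2 (limit 0.25), and floored at the pooled median. Control probe sets are given as deposited. Gene symbols came from the platform annotation and were checked by Entrez identifier against RefSeq (GRCm38.p6), where 0 differed. Each gene took its brightest probe set by mean log2 value. The 4 comparisons are differences of log2 values, with a fold of 2 counted and no p-value.

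All 10 members are described. From the other lists, genes at least 2-fold different with the germ-free state were named, at most 3 per list and comparison, and the 3 genes nearest in profile to the member with the largest germ-free difference. The members and lists were chosen with earlier results of these data known. Steps were tested on simulated arrays. Alternatives were 2 other scalings, 3 other floors, 2 other ways to represent a gene and 2 other folds. The number of arrays limits the precision. Python 3.11.15, numpy and pandas were used.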

Additional observations from a re-analysis of the deposited data

Results flagged for a closer look

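Tfrc was higher on the germ-free array in colon, by a log2 difference of 1.40, and lower on it in ileum, by a difference of -0.32. Each difference was larger than the SD between probe sets of that region (0.26 in colon, 0.20 in ileum), and they ran in opposite directions. The difference between regions was not tested, because each group is 1 array. The probe set of middle brightness and the 3′ control had the opposite sign to the brightest probe set in both regions, with log2 differences of 0.09 and 0.15 in ileum and -0.33 and -0.32 in colon.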

How the results depend on the processing

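No paired analysis was possible because each group has 1 array. No replicate could be left out for the same reason. In the count of members past the fold, the mean over a gene's probe sets (below, the averaged setting) gave 0 higher in germ-free colon (Tfrc dropped below 2-fold). It gave 4 higher and 1 lower in wild type ileum against colon, and 3 higher and 1 lower in germ-free ileum against colon. Median scaling also gave 1 lower in germ-free ileum against colon. A floor at the 75th percentile gave 2 higher in wild type ileum against colon. With no floor, 1 member was lower in germ-free colon and 2 in germ-free ileum, Hmox1 being counted at intensities of 31.7 and lower. Counting at 3-fold gave 0 higher in germ-free colon, and 0 higher and 0 lower in germ-free ileum. It gave 2 higher and 0 lower in wild type ileum against colon and 1 lower in germ-free ileum against colon, since fewer genes reach that fold. Counting at 1.5-fold gave 2 higher in germ-free ileum. Against colon it gave 5 higher in wild type ileum and 3 higher in germ-free ileum. The median log2 difference of the members was -0.17 in germ-free colon in the averaged setting. For wild type ileum against colon it was 0.92 there, and 0.26 both without a floor and with one at the 25th percentile. Of 237 values of single members under the scaling, floor and probe set alternatives, 207 moved by less than the SD between probe sets and 30 by more, and 0 of those past 2-fold changed sign. The 207 include values that could not move, such as those of genes with 1 probe set under the probe set alternatives. In all 3 values changed sign: Heph in colon (-0.14 with median scaling), Flvcr1 in colon (-0.17) and Tfrc in germ-free ileum against colon (0.07), the last 2 in the averaged setting. That setting averages probe set values before the floor is applied, and the other Flvcr1 probe set was below the floor in colon. The median of all measured genes in colon, germ-free minus wild type, was -0.14 with median scaling and 0.09 as deposited. The causes of these shifts were not tested. Cybrd1, near the floor, and Hmox1, below it, are limited by signal.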
